A study of Homo sapiens with 38 samples.

Results

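The background regions were the 624 stretches of the human genome at which CUT&RUN peaks were called for constructs that lack a complete DNA-binding domain for human sites, or in cells with no FLAG-tagged protein at all. They were obtained by merging the 918 peaks of 6 deposited lists, and they made up 624 of the 7579 regions formed when the 27085 peaks of all 19 lists of the series were merged. The 6 lists were those of LacI, Sp1 IDR-LacI, Sp1 DBD Mutant and SNAP-NLS cells and of Parental cells with a mouse antibody against FLAG, and of Parental cells with a rabbit antibody against FLAG. The regions were chosen by presence in a list with an IDR, the estimated rate of irreproducible peaks between replicates, no higher than 0.1, so that their number, peak values and recurrence are described without a test.

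All 38 libraries came from U-2 OS, an osteosarcoma cell line, in which the endogenous Sp1 carried a V5 epitope and a HaloTag. The methods name 1 knock-in clone as the parent. Parental cells held no transgene. The 9 other lines each held a doxycycline-inducible, SNAPf-tagged transgene with a FLAG epitope and a nuclear localization signal, integrated at the AAVS1 locus and kept under puromycin selection. LacI is a bacterial repressor with no natural site in the human genome, and Sp1 IDR-LacI joins to it the N-terminal intrinsically disordered region (IDR, here of the protein) of Sp1. Sp1 DBD Mutant is a disease-associated truncation that keeps the disordered region and 1 zinc finger, and SNAP-NLS is the tag alone with a nuclear localization signal. The remaining lines carried Sp1 WT, the isolated Sp1 DBD, an EWS IDR-Sp1 DBD chimera, the CTCF DBD or an Sp1 IDR-CTCF DBD chimera. Every line, Parental included, received doxycycline at 1 µg/mL for 36 h. The methods then describe sorting for cells that express the transgene and a further 36 h of culture with doxycycline. They do not say whether Parental cells were also sorted. Each group had 2 replicate libraries, and each deposited list joined both, so that a list had no replicate of its own. The labels do not say how the replicates relate, and the study describes them as independent biological replicates. The lists hold no read depth, and the read numbers of the study were not used here.

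CUT&RUN uses an antibody to tether micrococcal nuclease to chromatin and sequences the fragments that are released. Human centromeres are built of alpha satellite, head-to-tail copies of a short unit, part of which carry the CENP-B box bound by the centromere protein CENP-B. The flanking pericentromeric heterochromatin of several chromosomes holds satellites made of the word CATTC and its variants. Reads from such arrays match many places in an assembly and assemblies hold these arrays incompletely. Sp1 is a zinc finger activator of GC boxes in promoters, and CTCF is a zinc finger insulator protein.

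Example sequences of background regions are given as 200 bases around the summit, on the plus strand of hg38. The last, an AT-rich repeat, belongs to the class called not repeated, which is set out below. Both alpha satellite examples belonged to regions found in 4 of the 6 lists, and capitals mark the CENP-B box in the second. Capitals mark CATTC or GAATG in the satellite example and, in the last pair, the first stretch as long as the shift at which the sequence matched itself best. In CLPTM1L that stretch holds several near-identical copies of a shorter unit.
Alpha satellite, chr10:39965092-39965291: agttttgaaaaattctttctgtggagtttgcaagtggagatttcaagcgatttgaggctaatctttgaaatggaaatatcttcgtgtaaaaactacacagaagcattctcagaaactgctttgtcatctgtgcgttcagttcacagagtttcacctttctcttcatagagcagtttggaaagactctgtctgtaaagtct
Alpha satellite with a CENP-B box, chr1:124650451-124650650: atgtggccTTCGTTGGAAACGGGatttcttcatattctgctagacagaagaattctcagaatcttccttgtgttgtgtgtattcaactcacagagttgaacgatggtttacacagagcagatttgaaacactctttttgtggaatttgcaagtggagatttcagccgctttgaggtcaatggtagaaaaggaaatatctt
CATTC-type satellite, chr10:41851742-41851941: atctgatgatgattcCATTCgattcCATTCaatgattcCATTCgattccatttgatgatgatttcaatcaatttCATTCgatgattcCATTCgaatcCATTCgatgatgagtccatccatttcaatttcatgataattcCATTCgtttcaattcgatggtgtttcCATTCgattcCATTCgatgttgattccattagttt
Repeat in CLPTM1L, chr5:1327168-1327367: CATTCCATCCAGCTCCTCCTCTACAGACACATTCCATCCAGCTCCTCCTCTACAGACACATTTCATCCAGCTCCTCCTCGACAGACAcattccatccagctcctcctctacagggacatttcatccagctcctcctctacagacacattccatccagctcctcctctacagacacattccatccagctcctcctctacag
AT-rich repeat on an unplaced contig, chrUn_KI270333v1:2166-2365: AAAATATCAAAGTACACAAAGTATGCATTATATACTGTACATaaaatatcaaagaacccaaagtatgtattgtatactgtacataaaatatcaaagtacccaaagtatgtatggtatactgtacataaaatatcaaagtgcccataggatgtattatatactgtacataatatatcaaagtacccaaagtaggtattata

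The repeat in CLPTM1L matched itself best at a shift of 87 bases, over 95.6% of positions, and the AT-rich repeat at 42 bases, over 89.9%. The CATTC-type example had no such fixed unit, with a best match of 59.8% at 26 bases.

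The regions were narrow and lay in few places. Their median width was 221.5 bp, from 133 bp to the whole mitochondrial genome of 16569 bp, and together they covered 196635 bp. Chromosomes held 562 of them (90.1%, 95% Wilson interval 87.5 to 92.2) and 21 contigs held the other 62 (9.94%), of which 30 were on contigs assigned to a chromosome and 32 on unplaced contigs. Chromosome 1 alone held 159 regions (25.5%), followed by chromosome 10 with 96, chromosome 13 with 65, chromosome 4 with 55 and chromosome 20 with 29. These 5 chromosomes held 404 of the 624 regions (64.7%), although they held only 11.3%, 5.15%, 2.05%, 3.76% and 3.01% of the merged regions of all 19 lists. The contig chr1_KI270709v1_random, 66860 bp long, held 20 regions within its first 17.6 kb, 14 of them in 2 or more lists. On the chromosome Y sequence of hg38, 7 regions were called, all CATTC-type and in the SNAP-NLS list, of which 1 was also in the LacI list. Reads of such repeats match many places, so this placement does not show that the reads came from chromosome Y. The intervals here and below cover counting error only, and neighbouring regions are not independent.

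**Figure D1:**
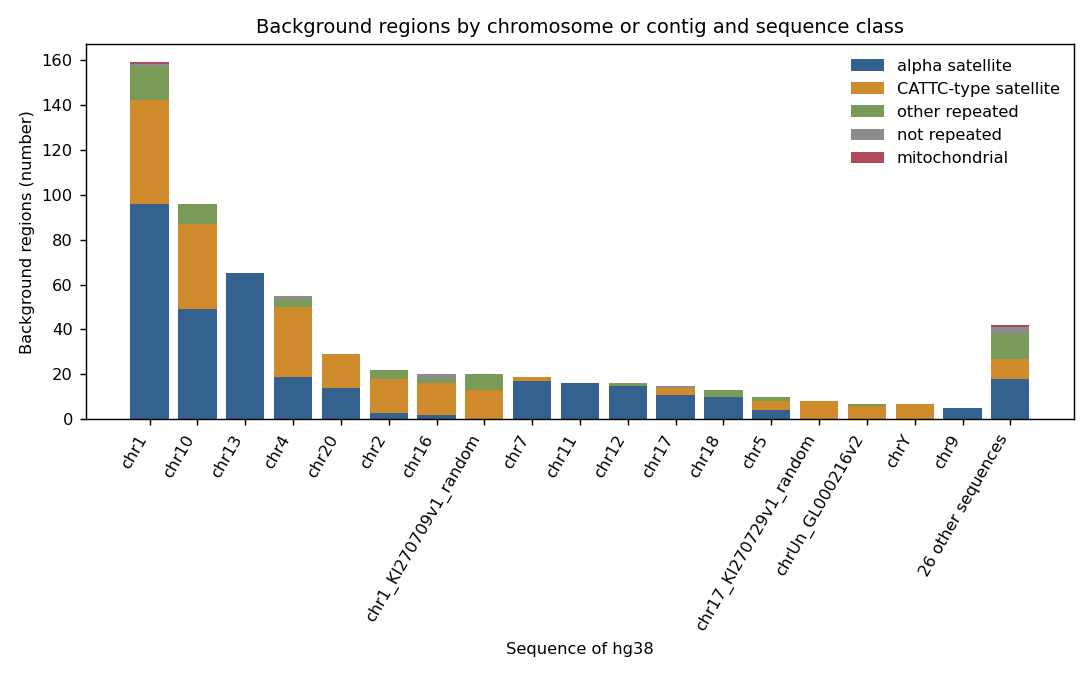
Number of background regions (vertical axis) on each chromosome or contig of hg38 with 5 or more of them, and on the remaining sequences together, with bars stacked by sequence class. Chromosome 1 reaches 159 regions and chromosome 10 reaches 96, and the 65 regions on chromosome 13 are all alpha satellite.

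Most of the regions sat at centromeres. A centromeric block was set for each chromosome as the largest cluster of windows with alpha satellite periodicity. Of the 561 regions on nuclear chromosomes, 341 (60.8%, 56.7 to 64.7) lay in such a block, 461 (82.2%) in or within 1 Mb of it and 494 (88.1%) in or within 5 Mb. All 65 regions on chromosome 13, all 19 on chromosome 7 and all 16 on chromosome 11 lay within the block. Joined over gaps of at most 100 kb, the regions formed 147 clusters, 82 of them a lone region, and the 10 largest clusters held 292 regions (46.8%).

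The 2 largest clusters, both on chromosome 1, differed in sequence and in the lists that called them. The first, chr1:123127593-124146423, held 51 regions, all alpha satellite, with 24 in the LacI list, 24 in the SNAP-NLS list, 8 in the Sp1 IDR-LacI list, 5 in the Sp1 DBD Mutant list and 0 in either Parental list. The second, chr1:143185809-143273232, packed 50 regions into 87.4 kb of the long arm, 38 of them CATTC-type and 12 of other repeats. It held 26 regions of the Sp1 IDR-LacI list, 19 of the Parental rabbit list, 9 of the SNAP-NLS list, 7 of the Parental mouse list, 2 of the Sp1 DBD Mutant list and 0 of the LacI list. The difference between these clusters is described and was not tested. Further CATTC-type clusters lay on chromosome 10 at chr10:42066302-42105010, with 28 regions of which 5 were in 4 lists, and on chromosome 4 at chr4:49091856-49156588, with 26 regions, all CATTC-type.

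By sequence, alpha satellite was the most frequent class, with 344 regions (55.1%, 51.2 to 59.0). It was assigned from the 10-kb window that holds the summit and not from the peak's own bases. The class required that a 10-kb window match itself, shifted by the length of an alpha satellite unit, over a share of at least 0.4 of its positions, and by 0.1 more than at any shorter shift from 20 to 160 bases. Of all bases of the assembly, unknown ones included, 2.36% lay in such windows. CATTC-type satellite followed with 211 regions (33.8%, 30.2 to 37.6), defined by at least 20% of the 200 summit bases in CATTC or GAATG, a level that 0.109% of all 200-bp tiles of the assembly reached. Other repeated sequence made up 58 regions (9.29%), of which 36 had at least 10% of their bases in CATTC or GAATG. The class called not repeated, with under 50% repeated words, held 9 regions (1.44%), and 2 were mitochondrial.

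Alpha satellite regions were the most highly repeated. Taking 31-base words around each summit, the median word of an alpha satellite region occurred at 1155 positions of the assembly, and the highest such median among them was 6100 positions. The median was 7 positions in the CATTC-type regions and 27.5 positions in the other repeated regions. The CENP-B box, searched as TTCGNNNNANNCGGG on both strands, was found near the summit of 148 of the 344 alpha satellite regions (43.0%) and of 0 of the 211 CATTC-type regions. It occurred in 0.877% of 200-bp tiles of the assembly. A match is a stretch of letters and not evidence of CENP-B binding.

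The GC box GGGCGG was near the summit of 0 of the 624 regions on either strand, which allows a share of up to 0.481% when the limit is set at 3 counts of the total, whereas 2.83% of tiles held it. The median GC content of the regions was 38.5%, from 19.5% to 52%.

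A pair of regions lay near ROCK1P1, a pseudogene on chromosome 18, and an intronic one in DUX4, a germline transcription factor gene, on chromosome 4. All 3 were in Parental lists only.

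**Figure D2:**
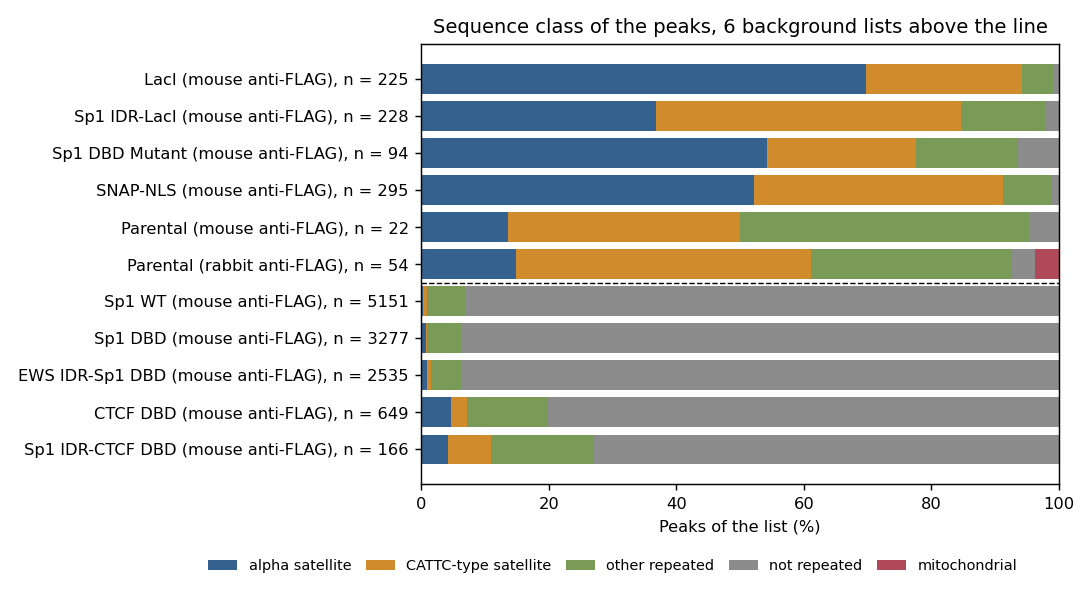
Share of the peaks (horizontal axis, %) of each sequence class in the 6 background lists, above the dashed line, and in the 5 other FLAG lists, with the number of peaks beside each name. Alpha satellite ranges from 13.6% to 69.8% of the peaks in the background lists and from 0.194% to 4.62% in the others.

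The balance of the classes varied among the 6 lists. In the LacI list, 157 of 225 peaks (69.8%, 63.5 to 75.4) were alpha satellite and 24.4% CATTC-type. The SNAP-NLS list, the largest with 295 peaks, had 52.2% alpha satellite and 39.0% CATTC-type, and the Sp1 DBD Mutant list, with 94 peaks, had 54.3% and 23.4%. In the Sp1 IDR-LacI list of 228 peaks the order was the opposite, with 36.8% (30.8 to 43.3) alpha satellite and 47.8% (41.4 to 54.3) CATTC-type. Alpha satellite was least frequent in the Parental lists, with 3 of 22 mouse peaks (13.6%, 4.75 to 33.3) and 8 of 54 rabbit peaks (14.8%, 7.70 to 26.6). Among Sp1 WT peaks 0.194% were alpha satellite and 0.660% CATTC-type. Among CTCF DBD peaks these shares were 4.62% and 2.47%.

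Peak values differed between the replicates of a list. The deposited -log10 p-value of each peak in either replicate, in file order, had medians of 8.28 and 8.80 in the LacI list, 8.52 and 11.5 in the SNAP-NLS list, 9.24 and 9.69 in the Sp1 DBD Mutant list and 10.4 and 13.2 in the Sp1 IDR-LacI list. The Parental lists were lopsided, with medians of 5.15 and 20.7 for the mouse antibody and 10.4 and 22.4 for the rabbit antibody. In Sp1 WT cells the medians were 18.7 and 31.7. The global IDR on a -log10 scale, on which 1 stands for the limit of 0.1, ran from 1.01 to 1.28 in the LacI list, so that every LacI peak lay just inside the limit. It started at 1.00 in the SNAP-NLS list and reached 2.78. The Sp1 IDR-LacI list ran from 2.38 to 3.03, the Sp1 DBD Mutant list from 2.74 to 3.42, the Parental mouse list from 2.99 to 3.38 and the Parental rabbit list from 2.46 to 3.45. Peaks outside the limit were not used here.

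Most regions were called in a lone list. Of the 624, 434 (69.6%, 65.8 to 73.0) were in 1 list, 115 in 2, 52 in 3 and 23 in 4, and 0 were in 5 or 6. The 190 regions in 2 or more lists made up 30.4% (26.97 to 34.2). The SNAP-NLS list held 161 regions found in no other of the 6, the LacI list 114, the Sp1 IDR-LacI list 108, the Parental rabbit list 30, the Sp1 DBD Mutant list 17 and the Parental mouse list 4. Of the 23 regions in 4 lists, 22 combined LacI, Sp1 IDR-LacI, Sp1 DBD Mutant and SNAP-NLS. These 23 lay on 8 sequences, with 9 on chromosome 10 and 5 on chr1_KI270709v1_random. CATTC-type sequence made up 133 of the 434 regions in 1 list (30.6%) and 13 of the 23 in 4 lists (56.5%), while alpha satellite made up 61.3% and 26.1%.

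**Figure D3:**
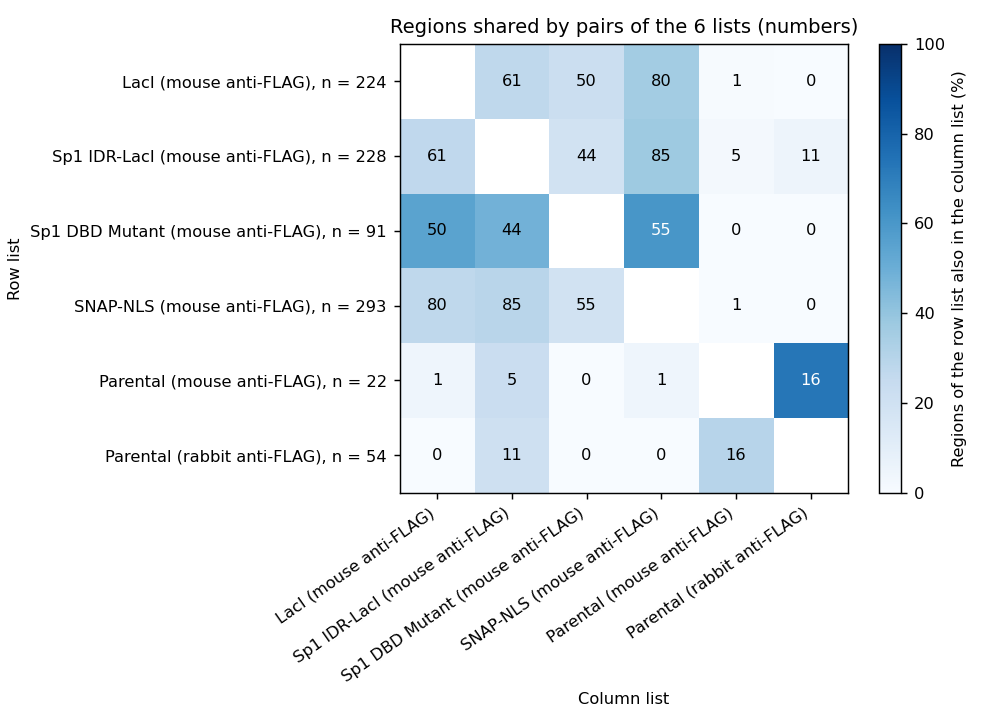
Number of regions shared by each pair of the 6 lists, with the shade giving the share (%) of the row list's regions that the column list also held. The 4 induced lines share between 44 and 85 regions pairwise, and the Parental lists share 16 with each other and at most 11 with any induced line.

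Each pair of induced lines shared at least 44 regions, and a Parental list shared at most 11 with an induced line. SNAP-NLS shared 85 regions with Sp1 IDR-LacI (29.0% of the SNAP-NLS regions and 37.3% of the Sp1 IDR-LacI regions) and 80 with LacI (27.3% and 35.7%). Of the 91 Sp1 DBD Mutant regions, 55 (60.4%) were also in the SNAP-NLS list and 50 (54.9%) in the LacI list. The Parental antibodies shared 16 regions, 72.7% of the 22 mouse regions and 29.6% of the 54 rabbit regions. Of the 60 regions in either Parental list, 13 (21.7%, 13.1 to 33.6) were also in an induced line, against 577 regions in the induced lines together. The Parental rabbit list shared 11 regions with Sp1 IDR-LacI and 0 with each of LacI, SNAP-NLS and Sp1 DBD Mutant. The Parental mouse list shared 5 with Sp1 IDR-LacI, 1 with LacI, 1 with SNAP-NLS and 0 with Sp1 DBD Mutant. The lists differ in size and in peak strength, and which libraries served as control in peak calling is not given in the sources used here. The part of any of these in the sharing was not tested.

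The region first in the order of recurrence, chr10:41851766-41851934, was CATTC-type and was in 4 of the 6 lists and overlapped by 9 of the other 13. Its -log10 p-values in the replicates were 18.3 and 15.01 in LacI, 23.1 and 12.1 in Sp1 IDR-LacI, 18.3 and 15.6 in Sp1 DBD Mutant and 15.9 and 24.1 in SNAP-NLS. It ranked 4 of 225 in the LacI list, 41 of 228 in the Sp1 IDR-LacI list, 1 of 94 in the Sp1 DBD Mutant list and 8 of 295 in the SNAP-NLS list. The values were of the same order in Sp1 WT cells, 23.7 and 23.5, but there the peak ranked 1803 of 5151. In CTCF DBD cells they were 16.2 and 19.5, at rank 54 of 649, and the peak ranked 25 of 166 in the Sp1 IDR-CTCF DBD list.

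Of the next regions, chr1_KI270709v1_random:11767-12525 and chr1_KI270709v1_random:16082-16268 were CATTC-type, in the same 4 lists, and each was overlapped by 8 other lists. The former had -log10 p-values of 13.97 and 19.5 in LacI and 14.9 and 26.0 in SNAP-NLS, and it lay under the peak that ranked 7 of 166 in the Sp1 IDR-CTCF DBD list. The alpha satellite region chr10:39965118-39965279 followed, with 17.6 and 12.3 in LacI and 14.3 and 18.6 in SNAP-NLS. Alpha satellite also made up chr10:39633797-39633949, chr10:41000868-41001047 and chr1:124650473-124650632, the last with the CENP-B box printed above and values of 18.1 and 33.7 in SNAP-NLS. The others of the first 12 were CATTC-type at chr10:42074284-42074501 and chr2:90396657-90396904 and other repeats at chr1_KI270709v1_random:29-344 and chr10:42085255-42085902. The last of the 12, chr21:10692774-10692995, was CATTC-type over 82.5% of its summit bases and was the lone region of 4 lists that included a Parental list. There the values were 10.4 and 17.1 in Parental mouse, 8.39 and 26.3 in LacI, 9.98 and 18.7 in Sp1 IDR-LacI and 7.08 and 18.3 in SNAP-NLS.

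Genes were rarely near. Of the 562 regions on chromosomes, 7 (1.25%) overlapped an annotated gene and 4 (0.712%) lay within 1000 bp of a transcription start, with a median distance to the nearest start of 621 kb. No region fell in SP1, the tagged gene, in PPP1R12C, which holds the AAVS1 site, or in 38 ribosomal RNA, 10 spliceosomal RNA, 443 nuclear transfer RNA and 73 histone genes. Intronic regions lay in RAB3GAP1, which encodes a regulator of Rab GTPases, and in SENP5, which encodes a SUMO protease, both in the SNAP-NLS list alone among the 6. The whole mitochondrial genome was a region of the Parental rabbit list, with -log10 p-values of 5.70 in one replicate and 60.6 in the other. The other mitochondrial region, chr1:633890-634146, lay in MTATP6P1, a nuclear copy of the mitochondrial gene MT-ATP6, and was also in the Parental rabbit list alone among the 6.

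The region in CLPTM1L, chr5:1327030-1327693, stood apart. It lay in an intron 594 bp from the transcription start, and it was overlapped by 11 of the other 13 lists, the most of any region. In the Sp1 IDR-LacI FLAG list its -log10 p-values were 7.94 and 8.55, at rank 160 of 228. In Sp1 WT FLAG they were 114 and 149 at rank 6 of 5151, and in EWS IDR-Sp1 DBD they were 66.0 and 97.9 at rank 9 of 2535. In the Sp1 DBD list they were 29.0 and 43.1, at rank 565 of 3277. The peak also ranked 2 of 1830 in Parental mouse anti-V5, with 198 and 264, and 1 of 1332 in Sp1 WT mouse anti-V5. In each of the 11 it lay under the best-ranked peak that overlapped any background region, while in the Sp1 IDR-LacI FLAG list its values were below the list's medians. It held no GGGCGG within the 200 bases printed above.

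The class called not repeated means that under 50% of the words around the summit were repeated, and its members ranged from 2.35% to 44.1%. Of its 9 regions, 3 lay on unplaced contigs, in 3 lists each, with GC contents of 26.5%, 24.5% and 19.5%. A pair at chr4:49709324-49710192 and chr4:49710472-49711006 had GC contents of 24.5% and 23.5%. The region chr17:22521282-22521506 was in both Parental lists and in no other of the 6, with -log10 p-values of 8.38 and 33.9 for the mouse antibody and 11.7 and 37.2 for the rabbit antibody.

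How far the lists of DNA-binding constructs and of endogenous Sp1 contained the background regions was asked next, with an overlap of at least 1 bp. Sp1 WT peaks overlapped 48 of the 624 regions (7.69%, 5.85 to 10.1), while the same list overlapped 67.8% of the merged regions of all 19 lists. The Sp1 DBD list overlapped 27 (4.33%) against 43.0%, and the EWS IDR-Sp1 DBD list 39 (6.25%) against 33.1%. The CTCF DBD list overlapped 43 (6.89%, 5.16 to 9.15) against 8.54%, and the Sp1 IDR-CTCF DBD list 21 (3.37%, 2.21 to 5.09) against 2.18%. The interval for CTCF DBD included the share over all regions, and that for Sp1 IDR-CTCF DBD lay just above it. Read the other way, 50 of 5151 Sp1 WT peaks (0.971%) lay on a background region, 43 of 649 CTCF DBD peaks (6.63%) and 22 of 166 Sp1 IDR-CTCF DBD peaks (13.3%, 8.92 to 19.3). When every list was held to an IDR of at most 0.01, the shares overlapped fell to 0.588% for Sp1 WT, 0.882% for CTCF DBD and 0.294% for Sp1 IDR-CTCF DBD, over 340 regions. The LacI list holds no peak at that limit, nor at 0.05.

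**Figure D4:**
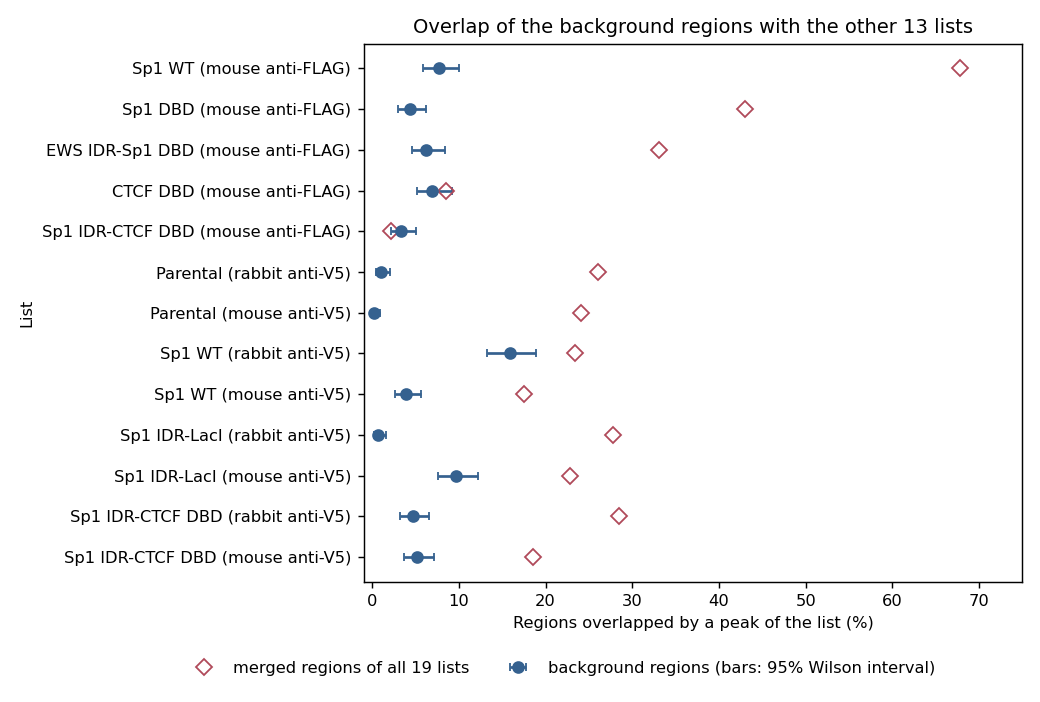
Share of the 624 background regions (horizontal axis, %) overlapped by each of the other 13 lists, as points with 95% Wilson intervals, beside the share of the merged regions of all 19 lists as open diamonds. Sp1 WT with the rabbit antibody against V5 overlaps the highest share of background regions, 15.9%.

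Among the lists of the V5 antibodies, which detect endogenous Sp1 in every line, Sp1 WT cells with the rabbit antibody stood highest with 99 regions (15.9%, 13.2 to 18.9) against 23.3% of all regions. The same antibody in Parental cells overlapped 6 regions (0.962%) against 26.0%, so that 94 of the 99 were not overlapped in Parental cells. Sp1 WT cells with the mouse antibody overlapped 24 regions (3.85%) against 17.5%, and Parental cells with it overlapped 1 (0.160%) against 24.1%. Sp1 IDR-LacI cells had the opposite order of antibodies, with 60 regions (9.62%) against 22.9% for the mouse antibody and 4 (0.641%) against 27.8% for the rabbit antibody. In Sp1 IDR-CTCF DBD cells the rabbit antibody gave 29 regions (4.65%) against 28.5% and the mouse antibody 32 (5.13%) against 18.5%. The lists are joined over replicates, so that differences between antibodies and lines were not tested.

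The 99 regions under Sp1 WT rabbit anti-V5 peaks were mainly CATTC-type. They comprised 65 of the 211 CATTC-type regions (30.8%, 25.0 to 37.3), 20 of the 58 other repeated regions and 8 of the 344 alpha satellite regions (2.33%, 1.18 to 4.52). The 50-region cluster at chr1:143185809-143273232 supplied 36 of them. That cluster also supplied 16 of the 48 regions overlapped by Sp1 WT FLAG and 15 of the 60 overlapped by Sp1 IDR-LacI mouse anti-V5. Sp1 DBD, EWS IDR-Sp1 DBD and CTCF DBD peaks overlapped 0 of its regions. Over the merged regions of all 19 lists they overlapped 43.0%, 33.1% and 8.54%. CTCF DBD peaks overlapped 23 alpha satellite regions (6.69%, 4.50 to 9.83) and 14 CATTC-type regions (6.64%, 3.99 to 10.8). Both intervals included the 8.54%. Sp1 DBD peaks overlapped 17 alpha satellite regions and 6 CATTC-type regions.

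The 6 lists differed in how far the others covered them. Of the 54 Parental rabbit regions, 33 (61.1%, 47.8 to 73.0) were overlapped by Sp1 WT rabbit anti-V5 and 10 by Sp1 WT FLAG, but 0 by each of the Sp1 DBD, EWS IDR-Sp1 DBD, CTCF DBD and Sp1 IDR-CTCF DBD lists. Of the 22 Parental mouse regions, 9 were overlapped by Sp1 WT rabbit anti-V5 and 0 by any of the 5 FLAG lists. Over the merged regions of all 19 lists, Sp1 WT rabbit anti-V5 overlapped 23.3% and Sp1 WT FLAG 67.8%. Sp1 DBD, EWS IDR-Sp1 DBD, CTCF DBD and Sp1 IDR-CTCF DBD overlapped 43.0%, 33.1%, 8.54% and 2.18% of them. The interval for 0 of the 54 rabbit regions reached 6.64%, above the 2.18%. That for 0 of the 22 mouse regions reached 14.9%, above the 8.54% and the 2.18%. Among the 224 LacI regions 8 (3.57%, 1.82 to 6.89) were overlapped by Sp1 WT rabbit anti-V5, and among the 228 Sp1 IDR-LacI regions 72 (31.6%, 25.9 to 37.9). Within the Sp1 IDR-LacI line itself, 47 of its 228 FLAG regions (20.6%, 15.9 to 26.3) were overlapped by its own mouse anti-V5 list. Its own rabbit anti-V5 list overlapped 3. Over the merged regions of all 19 lists, these V5 lists overlapped 22.9% (mouse) and 27.8% (rabbit). The interval for the 20.6% included the 22.9%.

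Across all 13 other lists, 207 regions (33.2%, 29.6 to 37.0) were overlapped at least once and 417 by none. The 5 FLAG lists overlapped 111 and the 8 V5 lists 160. Of the merged regions of all 19 lists, the 13 lists overlapped 94.5%, the 5 FLAG lists 88.3% and the 8 V5 lists 41.9%. Of the 441 peaks of these 13 lists that lay on a background region, 0 had a GC box near the summit, which by the same limit of 3 counts allows up to 0.680%, whereas 70.7% of Sp1 WT peaks off the regions had it. The Sp1 WT peaks on the regions had a median rank at 53.8% of that list, and the best-ranked of them, at rank 6, was the peak in CLPTM1L.

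**Figure D5:**
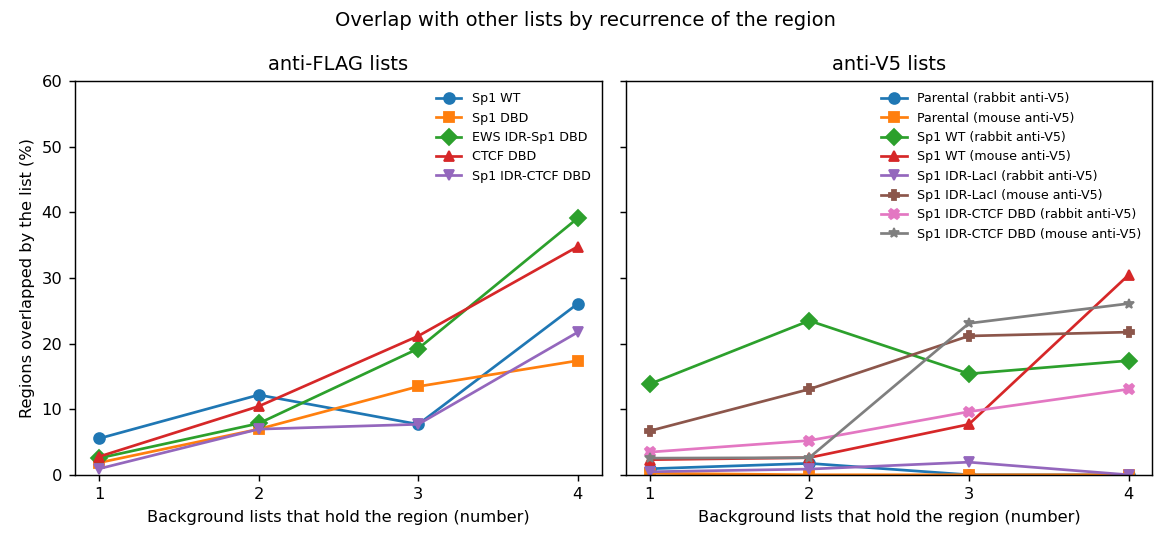
Share of the background regions (vertical axis, %) overlapped by each of the other FLAG lists (left) and V5 lists (right), for regions held by 1, 2, 3 or 4 of the 6 background lists (horizontal axis). EWS IDR-Sp1 DBD reaches 39.1% and CTCF DBD 34.8% of the 23 regions in 4 lists, and lines only join the points of a list.

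Overlap with the other lists was set beside recurrence in the 6 at the IDR limit of 0.1. The share overlapped by any of the 13 lists was 23.04% of the 434 regions in 1 list, 50.4% of the 115 in 2, 61.5% of the 52 in 3 and 73.9% of the 23 in 4, as a description. From 1 list to 4, the share overlapped went from 2.53% to 39.1% for EWS IDR-Sp1 DBD, from 2.76% to 34.8% for CTCF DBD and from 5.53% to 26.1% for Sp1 WT, while Sp1 WT rabbit anti-V5 gave 13.8% and 17.4%. The split by recurrence uses the lists that chose the regions, so no conclusion is drawn from it. The difference was also tested for Sp1 WT, and no conclusion is drawn from that test either. Its peaks overlapped 24 of the 190 regions in 2 or more lists (12.6%) and 24 of the 434 in 1 list (5.53%), a difference of 7.102 percentage points (two-sided Fisher's exact test, with neighbouring regions treated as independent, p = 0.00316). In the same exact test the call was lost on chromosomes 1 to 22 and X alone (3.63 points, p = 0.123), without the Sp1 IDR-LacI list (4.52 points, p = 0.0972) and without the SNAP-NLS list (3.76 points, p = 0.229). With an IDR of at most 0.05 the sign turned in the exact test (-0.34 points, p = 1), as it did at 0.01 (-0.79 points, p = 1), and at both limits the LacI list was empty.

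Against the 5101 Sp1 WT peaks that overlapped no background region, the regions differed in all 4 features tested (two-sided Fisher's exact tests over sites, Benjamini-Hochberg adjusted over 4). Repeated words made up at least 50% of the summit window in 591 regions (94.7%) and 5.96% of the Sp1 WT peaks. A transcription start lay within 1000 bp of 4 regions (0.641%) and of 86.5% of the Sp1 WT peaks. For both, the adjusted p was below the smallest number the computation could hold. The GC box was present near the summit of 0 regions and of 70.7% of the Sp1 WT peaks (exact test, adjusted p = 3.11e-299). Searched anywhere in the peaks instead, it was present at 0.160% of regions, and the difference from the Sp1 WT peaks was -93.3 percentage points. Windows matching themselves at the alpha satellite length over a share of at least 0.5 held 217 regions (34.8%) and 0 Sp1 WT peaks (exact test, adjusted p = 2.02e-226), although 99 of those 217 windows also matched at shorter shifts. These p-values compare sets of sites and not cultures, and they treat neighbouring sites as independent. Leaving out the 50 Sp1 WT peaks on the regions removed 8 of that list's 10 alpha satellite peaks and 26 of its 34 CATTC-type peaks. Part of the contrast was therefore set by the choice of comparator. Sp1 acts at GC boxes in promoters, so that choice also set in advance the direction of the GC box and transcription start differences. No conclusion beyond the shares is drawn from these tests.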

How the data were processed

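CUT&RUN libraries from U-2 OS cells were grouped by line and antibody from the sample labels. Per the submitters' processing notes, reads were handled with cutadapt 2.6, Bowtie2 2.3.5.1 (hg38), SAMtools 1.9, deepTools 3.5.4, MACS3 2.2.7.1 and bedtools 2.27.1. The authors called peaks in each replicate at p 1e-3 against merged controls, combined replicates by IDR and kept peaks with an IDR of at most 0.1. Which libraries served as control is not given in the sources used here, nor is any filter on mapping quality or any removal of listed artifact regions from the peaks. The deposited lists give -log10 p-values per replicate and an IDR score. For Sp1 WT FLAG and for both Parental V5 antibodies they hold slightly more peaks than the study reports. The reason is not given in the sources used here. The 6 deposited tables of the authors' differential comparisons, which hold log10 likelihood ratios, were not used.

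Peaks of the 6 lists were merged where they shared at least 1 bp, and the result was checked with bedtools 2.31.1. Repeats were measured on hg38 in Python 3.11.15 (NumPy 2.4.6, SciPy 1.17.1), and genes came from GENCODE 44. The scanning code was tested on simulated sequence. Regions were ordered by the number of background lists, then of other lists, then by position. The first 12 were named, with those under the best-ranked overlapping Sp1 WT, CTCF DBD, Sp1 IDR-CTCF DBD or Parental rabbit anti-V5 peak, those within 1000 bp of a coding gene's start and those in listed loci. The members, classes and lists were chosen with earlier results of these data known. The measure that leaves out arrays of shorter units, the centromeric blocks and the clusters were added after the sequences had been seen. The result for 1 kind of repeat is not reported here.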

Additional observations from a re-analysis of the deposited data

How the results depend on the processing

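Over 218 recomputed values, 185 stayed within their limits and 64 of 69 recomputed tests kept their direction and side of the threshold. The lists hold no depth, so that its effect was not measured here. Leaving out each of the 6 lists gave 463 to 620 regions, 25.8% to 28.5% in 2 or more lists, 6.35% to 10.2% overlapped by Sp1 WT FLAG, 11.7% to 21.0% by Sp1 WT rabbit anti-V5, and 3.76 to 8.23 points of difference in Sp1 WT overlap by recurrence. At an IDR of at most 0.05, Sp1 IDR-CTCF DBD overlapped 1.62%, Sp1 WT rabbit anti-V5 20.0%, and that difference reversed (-0.34 points). At 0.01 there were 340 regions, 25.3% in 2 or more lists, 30.9% in windows matching at the alpha satellite length, 13.2% on contigs, and 0.588%, 0.882% and 0.294% overlapped by Sp1 WT, CTCF DBD and Sp1 IDR-CTCF DBD FLAG, with the difference again reversed (-0.79 points). Merging within 1000 bp gave 39.4% in such windows and 7.44% on contigs. Merging within 10000 bp gave 328 regions, 37.5% in 2 or more lists, 38.7% in such windows, 7.62% on contigs, and overlaps of 9.76% (CTCF DBD) and 10.7% (Sp1 WT rabbit anti-V5). On chromosomes 1 to 22 and X the difference in Sp1 WT overlap was 3.63 points. A window match of at least 0.4 held 76.3% of regions, of 0.6 held 16.0%, and of 0.4 without shorter units, an alternative chosen after seeing the data, held 55.1%. Repeated words made up at least 90% of the summit window in 72.6%, and 50-base words were repeated in 81.2%. Except where fewer lists or peaks entered by construction, the cause was not tested. No paired analysis was possible because each list joins both replicates and the order of the replicates in it is not tied to the labels.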
